A study of Mus musculus with 2 samples.

Results

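Ancient mammalian non-LTR retrotransposons were followed as 8 repeat types of the mouse genome, counted in mitotic embryonic stem (ES) cells after chromatin immunoprecipitation (ChIP) against H3.3S31ph, the histone variant H3.3 carrying a phosphate on serine 31. The members were the rows of the deposited repeat tables whose name begins with MIR, L2, L3, L4, L5 or Plat_L3, out of 952 rows in all. The rule found 4 short interspersed element (SINE) rows, MIR, MIRb, MIRc and MIR3, and 4 long interspersed element (LINE) rows, L2, L3, L4 and L5, and 0 rows named Plat_L3. The choice rests on names alone and used no read count, though earlier results of these data were known when it was made. No consensus sequence of these elements was used here, so the rows are described by name and reads.

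The study had 2 samples, 1 H3.3S31ph ChIP and 1 input, which is chromatin sequenced without immunoprecipitation. Both came from wild-type ES cells of strain 129S1/SvImJ that had been held for 12 hours with 9 µM RO-3306, a compound that blocks the kinase CDK1 and so entry into mitosis, and were collected as mitotic cells 11 hours after its removal. Fixation took 10 min in 0.4% formaldehyde, sonicated fragments measured about 300 bp, and the ChIP used 10 µg of antibody. There was no unsynchronised sample, no H3.3 mutant and no second culture among the samples analysed here. The tables list repeats and no genes, so the ES cell label could not be checked against marker genes.

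MIR elements are SINEs derived from a transfer RNA gene, which carry no enzymes of their own and were copied by the machinery of LINEs. Their 3′ end resembles that of L2, the LINE held to have mobilised them. L2 and L3 are LINEs of the CR1-like group, and L4 and L5 belong to the RTE group. All of these families spread before or early in mammalian evolution, no longer move in the mouse, and survive as short, diverged copies scattered over the chromosome arms. H3.3 is the histone H3 variant that is deposited outside of DNA replication, and its serine 31, absent from the canonical H3 histones, is phosphorylated in mitosis.

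Each table covers 1 of 2 sequencing lanes of the same libraries. Lane 1 gave 6204712 ChIP reads and 4467116 input reads over all repeat rows, and lane 2 gave 6030765 and 4389635. With lanes summed, the percentage of all ChIP repeat reads that fell on a row was divided by the percentage of all input repeat reads on it, and the result is called its ratio. With 1 sample in each group there was no test between ChIP and input. All intervals are 95% exact intervals of counting error only, and no value has a replicate check. Of the 952 rows, 704 had at least 100 input reads, all 8 members among them, and 7 members had at least 1000. The median row of these 704, called the median repeat below, had a ratio of 0.805 (log2 ratio -0.31).

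As a whole, the 8 ancient rows took up a smaller part of the ChIP than of the input. Together they had 258290 ChIP reads and 224412 input reads, which is 2.11% (2.10 to 2.12) of ChIP repeat reads and 2.53% (2.52 to 2.54) of input repeat reads. The pooled ratio was 0.833 (0.828 to 0.838), and it stood at 0.830 in lane 1 and 0.837 in lane 2. At the input share the ChIP would have held 310022 of their reads, 51732 more than were counted. The interval lay below 1 for all 8 rows, and so it did for 79.5% of the 704 rows. An interval above 1 was found for 0 members, against 7.81% of the 704 rows. Their direction against input was thus that of most repeats of the table. The median log2 ratio of the members was -0.29, beside -0.31 over the 704 rows.

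The direction against input depended on the scale between the libraries. Because shares sum to a fixed whole, reads gained by strongly enriched repeats lower the ratios of all others. With the median repeat set to 1, the pooled log2 ratio of the 8 rows was 0.050 in place of -0.26, and 2 rows in place of 8 had an interval below 1. Quotients between 2 members, or between 2 sets of rows, do not contain that scale, and they carry the comparisons below.

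**Figure D1:**
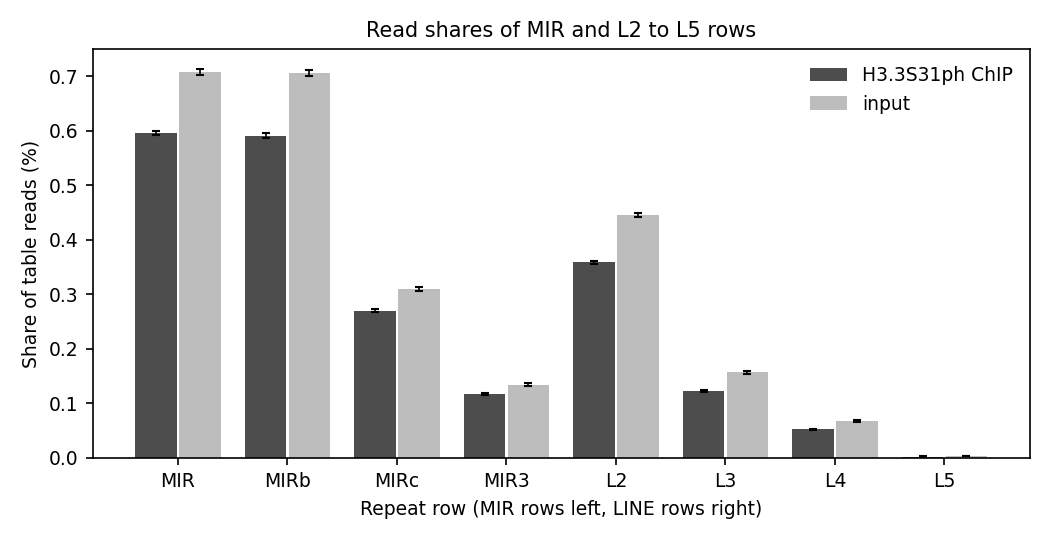
Share of each row among the repeat reads of the H3.3S31ph ChIP (dark bars) and of the input (light bars), in percent, with 95% exact binomial intervals of counting error as error bars. The 4 MIR rows stand left and the 4 LINE rows right, and the ChIP bar is the lower of the pair for each row, for example 0.596% in the ChIP and 0.709% in the input for MIR.

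The MIR rows kept more of their share in the ChIP than the LINE rows did. Pooled, the 4 MIR rows had 192669 ChIP reads and 164703 input reads, which gave a ratio of 0.847 (0.841 to 0.852). The 4 LINE rows had 65621 ChIP reads and 59709 input reads, which gave a ratio of 0.796 (0.787 to 0.804). MIR over LINE was therefore 1.06 (1.05 to 1.08), or 0.090 on the log2 scale, and it was 1.06 (1.04 to 1.08) in lane 1 and 1.07 (1.05 to 1.09) in lane 2. Seen within the 8 rows, MIR elements made up 74.6% (74.4 to 74.8) of the ChIP reads and 73.4% (73.2 to 73.6) of the input reads.

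The row ratios of the classes did not overlap. MIR rows ran from 0.836 to 0.875 and LINE rows from 0.764 to 0.805, in the summed lanes, with the lowest MIR row 0.032 above the highest LINE row. In lane 1 the MIR rows ran from 0.831 to 0.873 and the LINE rows from 0.758 to 0.799, and in lane 2 from 0.842 to 0.884 and from 0.756 to 0.811. The space between the classes was not empty in the table, since 109 of the 704 rows had ratios within it. All 4 MIR rows and none of the LINE rows had an interval above the median repeat, a state shared by 27.3% of the 704 rows. An interval below the median repeat was found for 2 LINE rows, L3 and L4, and for 19.2% of the 704 rows. The median repeat was taken as a fixed value in these counts. A ratio of 0.8 or lower was found for L3, L4 and L5 and for 47.4% of the 704 rows. Unlike the counts against the median repeat, this one depends on the scale between the libraries. On the scale of the authors' deposited log2 ratios, the log2 ratios were -0.18 for L3, -0.22 for L4 and -0.21 for L5, each above that bound.

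**Figure D2:**
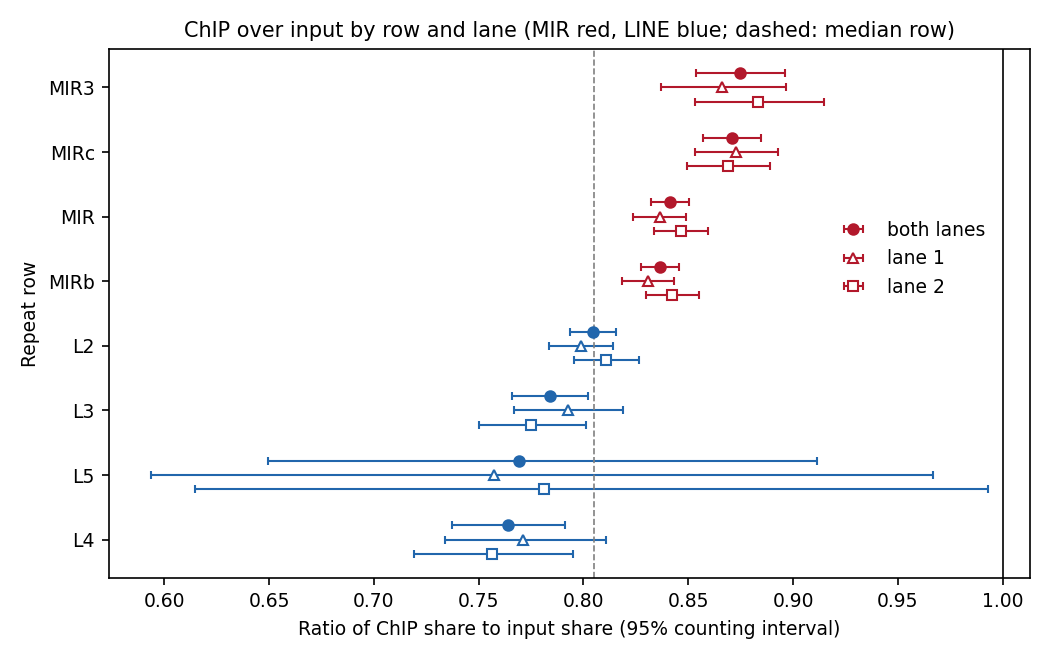
Ratio of ChIP share to input share (horizontal axis) for each of the 8 rows, MIR rows in red and LINE rows in blue, from both lanes (filled circles), lane 1 (triangles) and lane 2 (squares), with 95% intervals of counting error. The solid line marks 1 and the dashed line the median repeat at 0.805. All MIR points lie right of the dashed line, and the LINE points lie near it or left of it.

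MIR and MIRb are the abundant forms of the family and share its tRNA-derived head and conserved core. The row MIR had 36952 ChIP reads in lane 1 and 35994 in lane 2, against 31810 and 30955 input reads. Its ratio was 0.841 (0.832 to 0.850), and 67.3% of the 704 rows were lower. MIRb had 36533 ChIP reads in lane 1 and 35824 in lane 2, against 31666 and 30954 input reads. Its ratio was 0.836 (0.828 to 0.845), with 65.5% of rows lower. These rows were nearly equal in reads, and counting error did not separate their ratios, with a quotient of MIR over MIRb of 1.01 (0.991 to 1.02).

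MIRc, a further subfamily, and MIR3, a related SINE of the same kind, had the highest ratios of the 8 rows. MIRc had 16607 ChIP reads in lane 1 and 16411 in lane 2, against 13700 and 13745 input reads. Its ratio was 0.871 (0.857 to 0.885), above 75.3% of the 704 rows. MIR3 had 7223 ChIP reads in lane 1 and 7125 in lane 2, against 6003 and 5870 input reads, a ratio of 0.875 (0.854 to 0.896) that was above 75.6% of rows. MIR3 and MIRc were not separable from each other, with a quotient of 1.00 (0.976 to 1.03). Both were higher than the abundant forms beyond counting error, with reads taken as independent. MIRc over MIRb was 1.04 (1.02 to 1.06), MIRc over MIR 1.04 (1.02 to 1.06), MIR3 over MIRb 1.05 (1.02 to 1.07) and MIR3 over MIR 1.04 (1.01 to 1.07). With lanes summed, the class thus fell into a higher and a lower pair of rows, and the higher pair was the one with fewer reads. In a single lane the intervals of a higher and a lower row could overlap. In lane 1 they were 0.837 to 0.897 for MIR3 and 0.824 to 0.849 for MIR.

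Among the LINE rows, L2, the most abundant of them, stood at the median repeat. It had 22089 ChIP reads in lane 1 and 21803 in lane 2, against 19913 and 19571 input reads. Its ratio was 0.805 (0.794 to 0.816), with 49.9% of the 704 rows lower. Of the 406 rows with at least 1000 input reads, 44.6% were lower. L3, its CR1-like relative, had 7695 ChIP reads in lane 1 and 7379 in lane 2, against 6991 and 6929 input reads. Its ratio was 0.784 (0.766 to 0.802), with 38.5% of rows lower. The quotient of L2 over L3, 1.03 (0.999 to 1.05), had an interval that included 1.

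The RTE-type rows had the lowest point values. L4 had 3241 ChIP reads in lane 1 and 3126 in lane 2, against 3025 and 3009 input reads. Its ratio was 0.764 (0.737 to 0.791), with 27.1% of rows lower. L5 was the scarcest member, with 141 ChIP reads in lane 1 and 147 in lane 2, against 134 and 137 input reads, and its ratio of 0.769 (0.649 to 0.911) was correspondingly imprecise. L2 over L4 was 1.05 (1.01 to 1.09), and this was the only one of 6 LINE pairs that counting error separated. Neither L3 over L4, at 1.03 (0.984 to 1.07), nor L5 over L4, at 1.01 (0.847 to 1.20), was separable.

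Set against each other one by one, all 16 pairs of a MIR row and a LINE row had the MIR row higher, with quotients from 1.04 for MIRb over L2 to 1.15 for MIR3 over L4. The interval excluded 1 in 12 of the 16, and the other 4 were the pairs with L5, for which a difference was not detectable at 271 input reads. Within classes it excluded 1 in 4 of 6 MIR pairs and in 1 of 6 LINE pairs. The intervals of the 28 pairs were not adjusted for their number. L2 and the MIR family share sequence at the 3′ end, and the sources used here do not state to which row the authors assigned a read that matches both. The part of such reads in the MIR and LINE difference was not tested. MIR over L2 was 1.05 (1.03 to 1.06), MIR over L3 1.07 (1.05 to 1.10) and MIR over L4 1.10 (1.06 to 1.14). Of these LINE rows, L4 was separable from L2 and L3 was not, as given above. As L2 held most of the LINE reads, an unweighted comparison, the median log2 ratio of MIR rows minus that of LINE rows, gave 0.14 in place of 0.090. Without L2 the pooled value was 0.12.

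**Figure D3:**
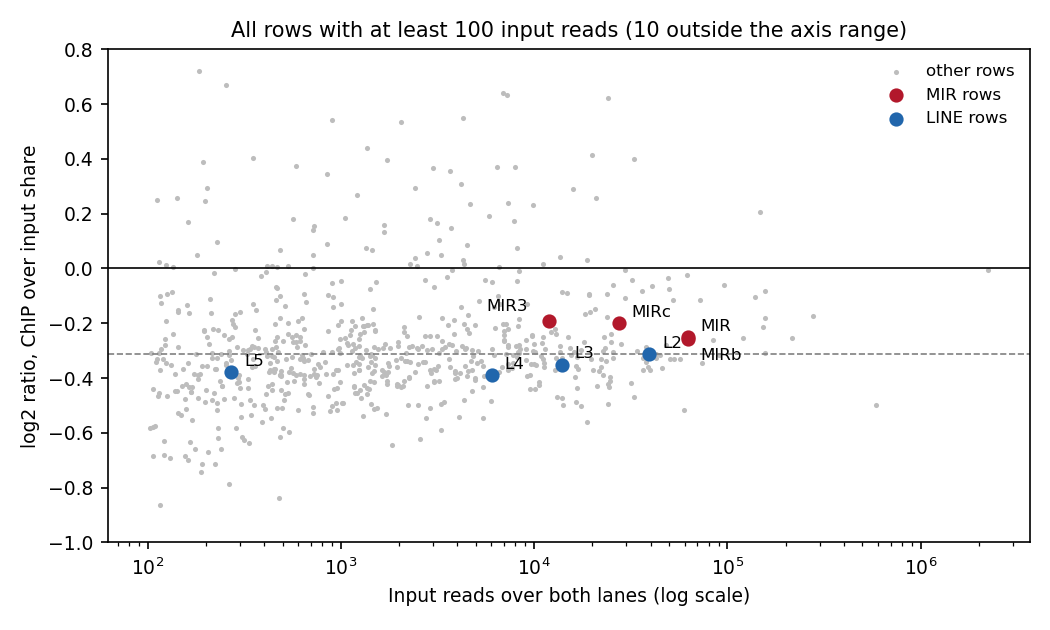
log2 ratio of ChIP share to input share (vertical axis) against input reads over both lanes (horizontal axis, log scale) for the rows with at least 100 input reads, MIR rows in red, LINE rows in blue and all others in grey, with 10 rows outside the plotted range. The solid line marks the input level and the dashed line the median repeat. The 8 members lie within the main band of rows, the MIR rows in its upper part and the LINE rows at or below its middle.

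The 8 rows lay inside the bulk of the table. The lower and upper quartiles of the 704 ratios were 0.761 and 0.869, and MIRc and MIR3 were the only members outside these bounds, slightly above the upper one. That placement depended on the read minimum. Among the 406 rows with at least 1000 input reads, MIRc and MIR3 lay inside the quartiles, with 73.6% and 73.9% of rows lower. L4 lay below the lower quartile there, with 19.5% of rows lower. Relative to the median repeat the log2 ratios were 0.12 for MIR3, 0.11 for MIRc, 0.064 for MIR and 0.055 for MIRb. They were -0.00035 for L2, -0.038 for L3, -0.065 for L5 and -0.076 for L4. Differences of this size, at most 1.15 between any 2 members, were measurable for the abundant rows by their read numbers if reads are independent. The spread between cultures is unknown.

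Like sets of repeats were compared with the ancient rows through the same quotients. The SINE rows whose name begins with B2_, B3 or B4 are of younger rodent families, derived at least in part from transfer RNA genes. Rodent SINE rows with other names were not part of this set. Its 7 rows had a pooled ratio of 0.876 (0.874 to 0.879), led in reads by B3 at 0.887, B4A at 0.839 and B3A at 0.862. MIR over this set was 0.966 (0.960 to 0.973), so the pooled MIR rows were slightly lower than the pooled rows of this set. The size of that gap does not hold for rodent SINE rows outside the set. The rows of the sets overlapped. B4A lay between MIR and MIRb, and the point values of MIRc and MIR3 were above those of B3A, B4A and B4, the last at 0.839 and named after its value was seen. The ancient mammalian apparent LTR retrotransposons (MaLR), with 32 MLT1 rows and 0 MST rows, had a pooled ratio of 0.781 (0.776 to 0.785). No age of any row was measured here, so the sets are not matched for age. MIR over ancient MaLR was 1.085 (1.075 to 1.095). LINE over ancient MaLR was 1.02 (1.01 to 1.03), but in lane 1 alone its interval, 0.997 to 1.03, included 1.

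The LINE rows were also set against HAL1, an extinct shortened relative of L1. Its 4 rows had a pooled ratio of 0.802 (0.786 to 0.819), with HAL1 itself at 0.785, HAL1-3A_ME at 0.821 and HAL1-2a_MD at 0.852. The LINE over HAL1 quotient was 0.992 (0.969 to 1.02), so these LINE sets were not separable, and a difference beyond the bounds of that interval was not found. There were 0 rows whose name begins with L1. The row MusHAL1 alone had 576454 ChIP reads and 589504 input reads at a ratio of 0.708 (0.705 to 0.710). With it joined to HAL1, an alternative chosen after its value was seen, LINE over HAL1 became 0.16 on the log2 scale in place of -0.012.

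**Figure D4:**
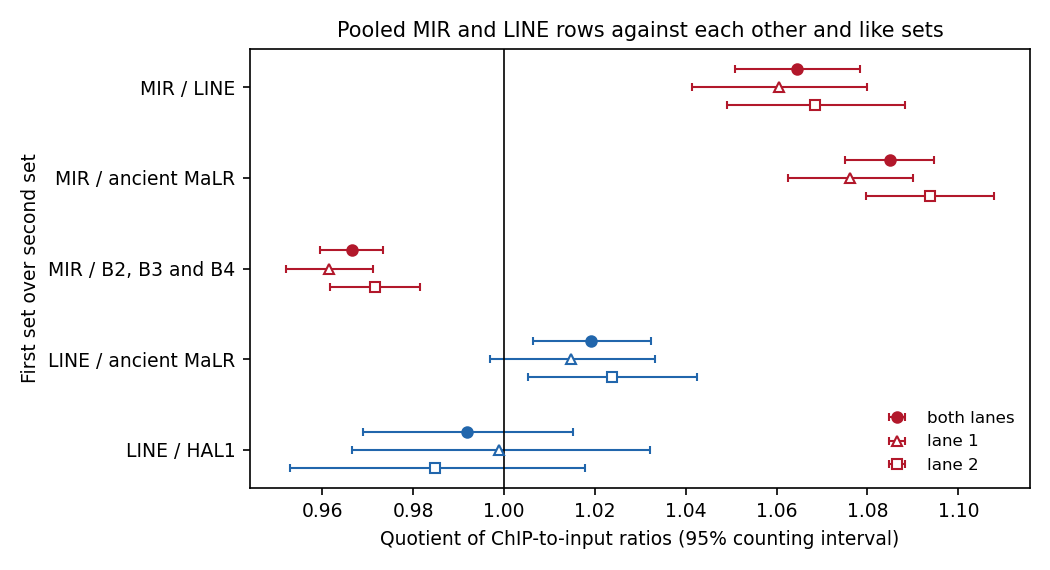
Quotient of pooled ChIP-to-input ratios (horizontal axis) of the first set named over the second set, with 95% intervals of counting error, from both lanes (filled circles), lane 1 (triangles) and lane 2 (squares), for MIR (red) and LINE rows (blue). MIR lies above LINE at 1.06 and above ancient MaLR at 1.085, below the B2, B3 and B4 set at 0.966, and LINE over HAL1 spans 1.

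A few further rows with names of ancient non-LTR elements fall outside the naming rule and were looked up after the values of the members were known. MamSINE1 reached a ratio of 0.875 (0.784 to 0.977) on 723 ChIP and 598 input reads. The other SINE rows were lower, AmnSINE1 at 0.793 (0.713 to 0.881), LFSINE_Vert at 0.766 (0.685 to 0.857) and AmnSINE2 at 0.701 (0.558 to 0.881). Pooled, these 4 SINE rows had a ratio of 0.802 (0.755 to 0.852), with 0.750 in lane 1 and 0.861 in lane 2. CR1_Mam, a LINE, stood at 0.769 (0.683 to 0.867) on 575 ChIP and 541 input reads. With so few reads, the intervals of these 4 SINE rows included both the ratio of L2 and the pooled MIR ratio, so a difference from either class was not detectable at this depth. Joined to their classes they left MIR over LINE at 0.090 on the log2 scale, a value that they could hardly move. The SINE rows added 2043 input reads to the 164703 of the MIR rows, and CR1_Mam added 541 to the 59709 of the LINE rows.

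The lanes gave like values for all 8 members. The interval of the lane 1 over lane 2 quotient included 1 for each of them, and lane 1 was the higher in 3 and lane 2 in 5. The log2 ratios of the lanes differed by 0.0061 for MIRc, the least, and by 0.044 for L5, the most. Lanes are runs of the same libraries, so their closeness says nothing of the spread between cultures.

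The authors' deposited table gives its own log2 ratio for each row and lane, with bounds and a conservative value that is 0 where the bounds span 0. Its scale makes all log2 ratios higher by about 0.17 than the table totals do. In the authors' deposited table the log2 ratios of lane 1 were -0.039 for MIR3, -0.028 for MIRc, -0.089 for MIR and -0.099 for MIRb. In that deposited table L2 stood at -0.156, L3 at -0.167, L4 at -0.206 and L5 at -0.232 in the same lane. The conservative value in the authors' deposited table was below 0 for 6 members in each lane, beside 40.8% of the 952 rows in lane 1 and 40.2% in lane 2. It was 0 in both lanes for the other 2, MIR3 and L5. On the deposited scale, too, each MIR row lay above each LINE row, which follows from the counts since 1 constant per lane is subtracted from all rows.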

How the data were processed

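Reads of 1 H3.3S31ph ChIP and 1 input library (50 bp single reads) were analysed from 2 tables, 1 per lane. Per the submitters' processing notes, Bowtie 1.0.0 and build mm9 were used. The deposited values are raw read counts per repeat type, plus the authors' deposited log2 ratios with bounds. The assignment of reads to repeat types and the treatment of multiple matches and duplicates are not given in the sources used here. Those log2 ratios were matched, to within 0.00053, by the log2 ratio of the counts with 0.5 added to each, less 1 constant for each lane.

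Lanes were summed. Ratios used table totals, with 95% exact conditional (Clopper-Pearson) intervals (Python 3.11.15, scipy 1.17.1). Quotients between rows or sets are conditional odds ratios with exact intervals (fisher.test, R 4.3.3), with no p-value used. Both computations were tested on simulated data. Those reads were drawn as independent counts, the model that the intervals assume. The test thus checked the computation and says nothing of duplicates or of the spread between cultures. Intervals cover counting error only, as each group has 1 sample. No molecular identifiers are described, so copies of 1 fragment could not be told apart here and would make the intervals too narrow. All 8 members were named in full, and of like sets at most the 3 rows with most input reads, with other rows said to be chosen later. Members, lists and alternatives were chosen with earlier results of these data known. Alternatives were single lanes, other scales, 1 read added, other read minimums, a 90% interval, unweighted medians and leaving out each row.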

Additional observations from a re-analysis of the deposited data

How the results depend on the processing

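Values here are log2. MIR over LINE, 0.090, does not contain the scale between libraries. It was 0.085 in lane 1 and 0.095 in lane 2, which are runs of the same libraries. Unweighted medians gave 0.14, and leaving out each row gave 0.082 (without MIRc) to 0.12 (without L2). Because each MIR row lay above each LINE row, medians and left-out rows could not turn its direction. They show only how its size varied. Without L2, where MIR over LINE was 0.12, the pooled LINE ratio was -0.36 and that of all members -0.25. Leaving out MIRb gave a pooled MIR ratio of -0.23, and leaving out MIRc gave -0.27 for all members. With unweighted medians the values were -0.22 for MIR, -0.36 for LINE and -0.29 for all members.

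The scale moved all values against input. With the median repeat set to 1, directions turned for MIR pooled, at 0.073, all members, at 0.050, the median member, at 0.028, MIR3, at 0.12, MIRc, at 0.11, MIR, at 0.064, and MIRb, at 0.055. The pooled LINE ratio was then -0.017, and 2 members had an interval below 1. Leaving out the 5 rows with most input reads gave -0.31 for MIR, -0.40 for LINE, -0.33 for all members and -0.35 for the median member. On the deposited scale these were -0.072, -0.16, -0.095 and -0.12, and 6 members had an interval below 1. Leaving out the 5 rows with most ChIP reads, chosen after seeing the data, gave -0.037, -0.13, -0.061 and -0.083, with 5 members below 1, while MIR3, at 0.0096, and MIRc, at 0.0031, turned direction with intervals that included 0. The count of rows above the median repeat, 4, cannot change with the scale, and it was also 4 in each lane, with 1 read added, under the other read minimums and with a 90% interval. Joining MusHAL1, also chosen after seeing the data, took LINE over HAL1 to 0.16. Lane, read-added and scale alternatives for the comparisons with like sets and for the pairs were added after seeing the data too. In lane 1, 15 pairs were separable, and in lane 2, 17, beside 17 with the lanes summed. These counts do not show that the same pairs were separable each time. The pair quotients named above are those of the summed lanes.

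L5, with 271 input reads, limits what can be said of it. No paired analysis was possible because each group has 1 sample. The cause of the shifts other than those set by the scale was not tested.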
